A study of Mus musculus with 4 samples.

Results

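Unc5b, Nrp1, Nrp2, Met, Flt1, Kdr, Plxnd1, Plxnb2 and Sema4d are 9 genes of receptors and a ligand that are known from axon guidance and blood vessel growth, and they are 9 of the 53465 genes with RNA-seq counts in this study of MDSCs. They were picked by symbol with the difference between EGCG and control already known, because several of them had lower values in the EGCG libraries. Their differences between the groups are therefore a description. Counts of calls among them are given beside the share or count over all tested genes where one was at hand.

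MDSCs are a mixed population of immature myeloid cells that expands with a tumor and restrains T cells, and EGCG is the main catechin of green tea. All cells came from the spleens of BALB/c mice carrying 4T1, a transplantable mouse mammary carcinoma line, and were isolated with beads against Gr-1, an epitope of Ly-6G and Ly-6C. The control group was kept in control medium for 6 h and the EGCG treatment group in 5 μg/mL EGCG for 6 h, with 2 libraries in each group and no other agent or allele. According to the methods, male mice of 6 weeks were used and the spleens were taken after 2 weeks, whereas the labels give day 21. The sources used here do not give the mice or wells from which the libraries of a group were made, so p-values measure only the spread between these samples, which may be technical.

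Between 17767318 and 18390385 reads were counted on genes in each library. Neutrophil and granulocytic MDSC markers, with S100a9 the most abundant, had the highest sum of the marker lists in every library, with of 63050 to 83483 CPM (counts relative to library size, corrected with TMM factors), and none of them was at 0. Control replicate 1 differed more from the EGCG libraries than control replicate 2 did. The mean chi-square of counts per gene was 14.4 and 11.2 between it and the EGCG libraries, while it was 6.90 and 6.14 between control replicate 2 and the EGCG libraries, 6.25 between the control libraries and 6.07 between the EGCG libraries.

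Netrins, semaphorins, VEGFs and HGF are extracellular cues that are read by receptors which steer growing axons and also sprouting vessels. UNC5B is a receptor for netrin-1. Neuropilins are co-receptors that bind class 3 semaphorins and VEGFs and signal together with plexins or VEGF receptors, FLT1 and KDR are the receptors for VEGF-A, MET is the receptor for HGF, and plexins are the signaling receptors for semaphorins. Sema4d, also known as CD100, is a semaphorin of leukocyte surfaces. In myeloid cells neuropilins, plexins and FLT1 are known for roles in migration and adhesion, whereas KDR is best known from endothelial cells.

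In the RefSeq promoter table for GRCm38.p6, all 9 genes were matched, with 12 windows of 250 bases upstream of a start site. The windows were searched on both strands for 6 motifs. The GC box, to which factors of the SP family bind, was searched as GGGCGG. The TATA box was searched as TATAAA and the AP-1 motif as TGANTCA. The cAMP response element was searched as TGACGTCA and the STAT motif as TTCNNNGAA. The core of the hypoxia response element was searched as ACGTG. A GC box was found in 10 of the 12 windows, beside 32.7% of the 32851 upstream windows of all genes in the table. Its matches lay in every window of 8 of the 9 genes, and Sema4d had it in 1 of 3 windows. The promoters of Unc5b, which had the largest difference, of the VEGF receptors Kdr and Flt1, and of Plxnd1, the most abundant of the receptors, are shown 5′ to 3′ on the strand of the gene, with motif matches in capitals. CCGCCC is the GC box read on the other strand. They are Unc5b at chr10:60831582-60831831, Kdr at chr5:75978459-75978705, Flt1 at chr5:147726012-147726261 and Plxnd1 at chr6:115995006-115995255, where each gene lies on the minus strand. The window of Kdr is shown without its last 3 bases, which lie within the annotated transcript.
Unc5b: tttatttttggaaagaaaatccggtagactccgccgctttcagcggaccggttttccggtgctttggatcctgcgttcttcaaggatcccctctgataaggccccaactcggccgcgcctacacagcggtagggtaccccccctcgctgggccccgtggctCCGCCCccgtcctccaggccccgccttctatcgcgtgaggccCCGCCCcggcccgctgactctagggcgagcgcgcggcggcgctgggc
Kdr: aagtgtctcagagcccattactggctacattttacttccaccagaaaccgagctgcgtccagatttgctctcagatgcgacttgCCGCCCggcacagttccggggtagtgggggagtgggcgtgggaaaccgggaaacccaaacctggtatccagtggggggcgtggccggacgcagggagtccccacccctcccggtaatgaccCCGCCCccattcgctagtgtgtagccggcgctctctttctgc
Flt1: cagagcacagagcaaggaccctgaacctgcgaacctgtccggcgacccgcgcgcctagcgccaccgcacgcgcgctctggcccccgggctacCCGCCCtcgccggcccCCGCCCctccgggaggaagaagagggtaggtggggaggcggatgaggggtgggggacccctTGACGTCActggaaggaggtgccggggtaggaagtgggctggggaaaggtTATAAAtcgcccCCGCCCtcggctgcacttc
Plxnd1: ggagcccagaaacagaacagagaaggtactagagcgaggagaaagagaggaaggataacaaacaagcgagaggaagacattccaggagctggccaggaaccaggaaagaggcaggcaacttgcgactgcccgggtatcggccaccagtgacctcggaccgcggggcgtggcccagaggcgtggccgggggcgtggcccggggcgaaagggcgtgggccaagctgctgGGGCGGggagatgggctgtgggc

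Among these windows that of Flt1 was the only one of the 12 with the TATA box, 31 bases before the start site, and with the cAMP response element, 81 bases before it. These motifs were in 12.4% and 1.55% of all upstream windows. An AP-1 site was found upstream of Met and in 1 window of Sema4d, and ACGTG likewise in Met and in 1 window of Sema4d, against 6.75% and 16.6% of all windows. The ACGTG matches in Met lay 126 and 125 bases before the start site on opposite strands and overlap each other. The STAT motif was in none of the 12 windows and in 7.02% of all windows. GC content was 66.8% for Unc5b, 61.6% for Kdr, 70.4% for Flt1 and 64.8% for Plxnd1, and the median over all windows was 52.4%. The presence of these letters was not related to any measurement of binding here.

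Of the 9 genes, 8 had a lower mean in the EGCG libraries and 1, Sema4d, a higher one. All 9 passed the filter on low counts. The median log2 fold change (EGCG over control) was -0.47, and the median over all 14682 tested genes was 0.0031. None of the 9 passed an adjusted p of 0.05 in edgeR, beside 0.136% of tested genes called lower, 0.0136% called higher and 0.150% called in either direction. The paper, which filtered at the same threshold in edgeR, lists Unc5b, Nrp2 and Met among its top genes lower both with EGCG and in healthy mice. It names Met, but not Unc5b or Nrp2, among the genes whose qRT-PCR change had the direction of the RNA-seq. At an unadjusted p under 0.05 in edgeR there were 7 of the 9, all lower, beside 7.02% of tested genes lower and 5.22% higher. DESeq2 called 0 of the 9, beside 50 genes lower and 14 higher over the 14682 fitted. It had 4 of the 9 at an unadjusted p under 0.05, for which no share of all tested genes was at hand. DESeq2 gave no adjusted p to genes of low mean level, such as Efnb1 from the pathway list below, with a mean of 5.445 CPM. Unc5b, Flt1 and Kdr had lower means of 2.04, 4.40 and 5.33 CPM, so a lack of a DESeq2 call is no result about them. In 6 of the 9 both EGCG libraries lay below both control libraries, as in 21.2% of tested genes, and in none did both lie above, as in 21.5%. The genes were chosen on this contrast, and nothing is read from these counts.

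**Figure D1:**
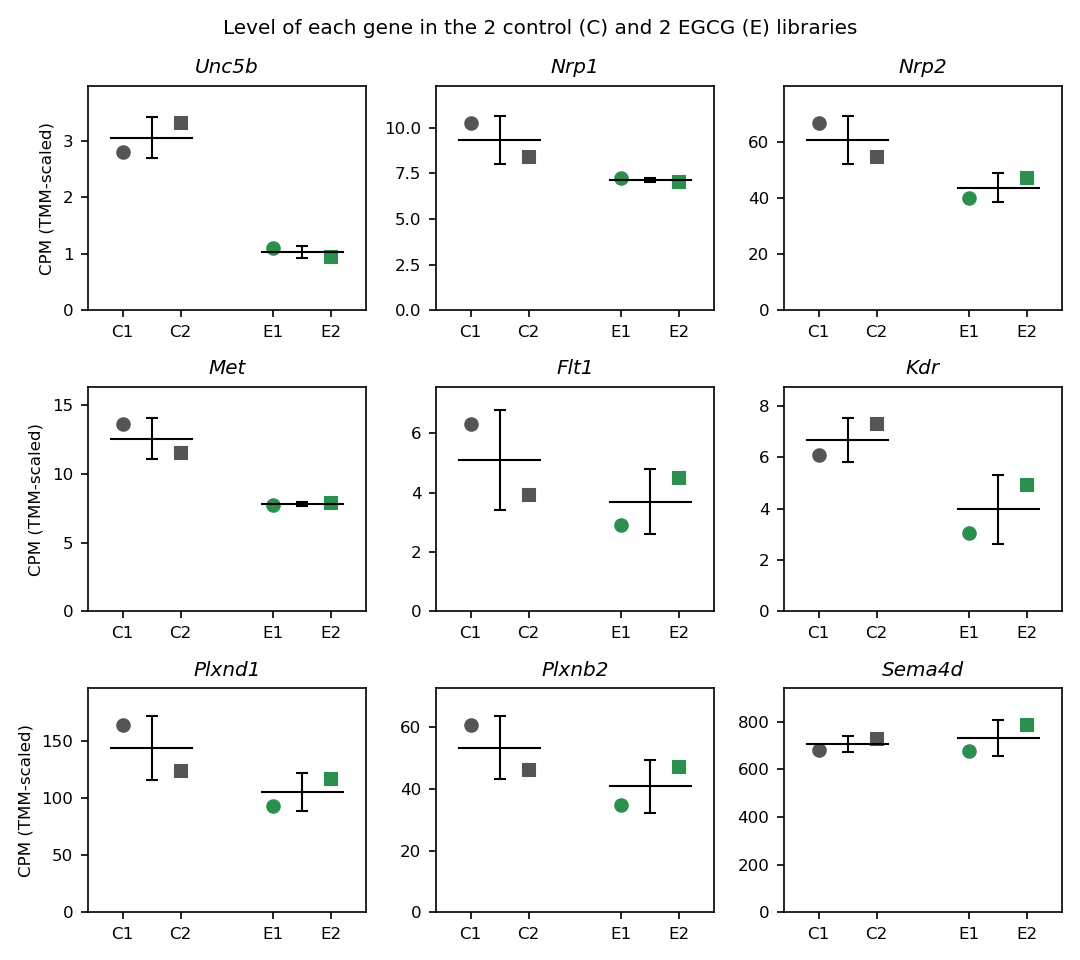
Level of each gene in CPM (TMM-scaled) in the control libraries (C1, C2, grey) and the EGCG libraries (E1, E2, green), with circles for replicate 1, squares for replicate 2, horizontal lines at the group means and bars of 1 SD (n = 2). In Unc5b, Nrp1, Nrp2, Met, Kdr and Plxnd1 the groups do not overlap, while in Flt1, Plxnb2 and Sema4d they do.

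Unc5b (ENSMUSG00000020099, chr10:60762593-60831581 in GRCm38) encodes a netrin-1 receptor that also restrains vessel sprouting. The control libraries (replicates 1 and 2) held 51 and 59 of its reads, and the EGCG libraries (replicates 1 and 2) held 20 and 17. The corresponding levels were 2.79 and 3.30 CPM, and 1.10 and 0.952 CPM. The groups did not overlap, and both EGCG libraries were far below both controls. The mean was 3.05 ± 0.360 CPM (SD, n = 2) in the control group and 1.03 ± 0.107 CPM (SD, n = 2) in the EGCG treatment group, which is 0.339 of the control level (log2 fold change of -1.56, SE 0.30). The replicates differed by much less, with log2 ratios of -0.24 between the control libraries and 0.21 between the EGCG libraries. Counting alone gave 95% Poisson intervals of 38.0 to 67.1 and 44.9 to 76.1 counts for control, and of 12.2 to 30.9 and 9.90 to 27.2 for EGCG, which cover counting error only. Leaving out each library in turn left the log2 fold change of Unc5b between -1.67 and -1.43. It ranked 11 from the lowest of the 14682 tested genes, with 0.0681% of them lower. The rank takes no account of the standard error, and since the genes were picked with this contrast known, it is a description only. In bulk samples fewer cells of a type and less RNA per cell cannot be told apart, which holds for Unc5b and for every gene below.

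Genes whose levels ran most like those of Unc5b were sought among 2797 tested genes with a mean CPM within 2-fold of its own, by the root mean square distance of centred log2 CPM over the 4 libraries. The nearest was Serpina3h, a serine protease inhibitor gene of a large family, at a distance of 0.173, with 26, 31, 9 and 11 counts in control replicates 1 and 2 and EGCG replicates 1 and 2. Nfasc, which encodes the cell adhesion molecule neurofascin, followed at 0.211 with 44, 46, 22 and 19 counts. Adgrf5, an adhesion G protein-coupled receptor gene, was at 0.214 with 73, 85, 42 and 32 counts. These genes were picked for their likeness over the same 4 libraries, so their log2 fold changes of -1.49, -1.12 and -1.09 describe the match only.

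Nrp1 (ENSMUSG00000025810, chr8:128358604-128503363) encodes neuropilin-1, the co-receptor for class 3 semaphorins and VEGF-A. It had 187 and 150 counts under control conditions against 131 and 126 under EGCG. In CPM this was 10.2 and 8.39 against 7.23 and 7.05, so that the groups did not overlap but control replicate 2 was closer to the EGCG libraries than to control replicate 1. The log2 fold change of Nrp1 was -0.38 (SE 0.16), and without control replicate 1 it was -0.23. The microRNA gene Mir1903 lies within Nrp1 and shares 80 of its exonic bases, or 0.818%, and reads there cannot be assigned to either gene with certainty.

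Nrp2 (ENSMUSG00000025969, chr1:62703285-62818695) encodes neuropilin-2, a co-receptor for SEMA3F and VEGF-C. Control replicates 1 and 2 held 1216 and 978 counts, and EGCG replicates 1 and 2 held 725 and 845. The levels were 66.6 and 54.7 CPM against 40.0 and 47.3 CPM, and every EGCG value was under every control value. The log2 fold change of Nrp2 was -0.48 (SE 0.11), beside replicate ratios of 0.28 and -0.24 in log2, and leaving out control replicate 1 gave -0.32 and leaving out control replicate 2 gave -0.61. Per exonic length, Nrp2 stood 5.37 and 5.39 times above Nrp1 in control libraries against 4.57 and 5.54 times above it with EGCG. The ratio within a library does not depend on the scaling between libraries, and for the neuropilins its EGCG values lay on both sides of the control values.

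Kdr (ENSMUSG00000062960, chr5:75932827-75978458) encodes VEGFR2, the main signaling receptor for VEGF-A. Read counts were 111 and 130 for control against 55 and 88 for EGCG. In CPM they were 6.08 and 7.28 against 3.03 and 4.93, without overlap, and EGCG replicate 1 was much lower than EGCG replicate 2. The log2 fold change of Kdr was -0.75 (SE 0.23), and the log2 ratio between the EGCG libraries alone was -0.70. Without EGCG replicate 1 the value was -0.43, and without EGCG replicate 2 it was -1.13.

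Flt1 (ENSMUSG00000029648, chr5:147561604-147726011) encodes VEGFR1, which binds VEGF-A and placental growth factor and also acts as a decoy. With 115 and 70 counts, the control libraries stood against 53 and 80 counts in the EGCG libraries. These were 6.30 and 3.92 CPM against 2.92 and 4.48 CPM, so that EGCG replicate 2 lay above control replicate 2 and the groups overlapped. The log2 ratios between replicates, 0.69 for control and -0.62 for EGCG, were each larger in size than the log2 fold change of Flt1, which was -0.47 (SE 0.26). Without control replicate 1 it was -0.08. Within each library the level of Kdr per exonic length was above that of Flt1, by 1.44 and 2.78 times in control libraries against 1.55 and 1.65 times with EGCG.

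Met (ENSMUSG00000009376, chr6:17463800-17573980) encodes the receptor tyrosine kinase for HGF. It had 248 and 205 counts under control conditions against 140 and 141 under EGCG. At 13.6 and 11.5 CPM against 7.72 and 7.89 CPM, the EGCG libraries nearly coincided and lay below both controls. The mean was 12.5 ± 1.49 CPM (SD, n = 2) in the control group and 7.81 ± 0.122 CPM (SD, n = 2) in the EGCG treatment group. The log2 fold change of Met was -0.68 (SE 0.15), larger in size than the replicate ratios of 0.24 and -0.03, and it ran from -0.80 to -0.55 when each library was left out. Beside Unc5b, Met thus had the difference that moved least in proportion when a library was dropped.

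Plxnd1 (ENSMUSG00000030123, chr6:115954811-115995005) encodes plexin-D1, the receptor for SEMA3E and a known brake on vessel growth. Control replicates 1 and 2 held 2983 and 2211 counts, and EGCG replicates 1 and 2 held 1688 and 2083. In CPM they were 163.4 and 123.7 against 93.1 and 116.6, and control replicate 2 and EGCG replicate 2 were close to each other. The groups did not overlap, yet the log2 ratios of 0.40 and -0.33 between replicates were near the size of the log2 fold change of Plxnd1, which was -0.45 (SE 0.12). Dropping control replicate 1 gave -0.23, and dropping control replicate 2 gave -0.64.

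Plxnb2 (ENSMUSG00000036606, chr15:89155549-89180788) encodes plexin-B2, a receptor for class 4 semaphorins. Read counts were 1107 and 825 for control against 632 and 840 for EGCG. The levels of 60.6 and 46.2 CPM against 34.9 and 47.0 CPM overlapped, since EGCG replicate 2 was above control replicate 2. The log2 fold change of Plxnb2 was -0.38 (SE 0.14), and the replicate ratios in log2 were 0.39 and -0.43. Leaving out control replicate 1 gave -0.17, and leaving out EGCG replicate 1 gave -0.18. The plexins moved together from library to library: the ratio of Plxnd1 to Plxnb2 per exonic length was 2.85 and 2.83 in control libraries against 2.82 and 2.62 with EGCG.

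Sema4d (ENSMUSG00000021451, chr13:51685529-51793747) encodes a transmembrane semaphorin that binds plexins of class B and CD72. With 12455 and 13019 counts, the control libraries stood against 12316 and 14012 counts in the EGCG libraries. These were 682.1 and 728.5 CPM against 679.2 and 784.5 CPM, so that the lowest and the highest library were both from the EGCG treatment group. The log2 fold change of Sema4d was 0.05 (SE 0.09), and it ran from -0.05 to 0.16 when each library was left out. The ligand thus had no difference beyond the replicate spread, and its ratio to its receptor gene Plxnb2, per exonic length, was 11.3 and 15.9 in control libraries against 19.6 and 16.8 with EGCG.

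**Figure D2:**
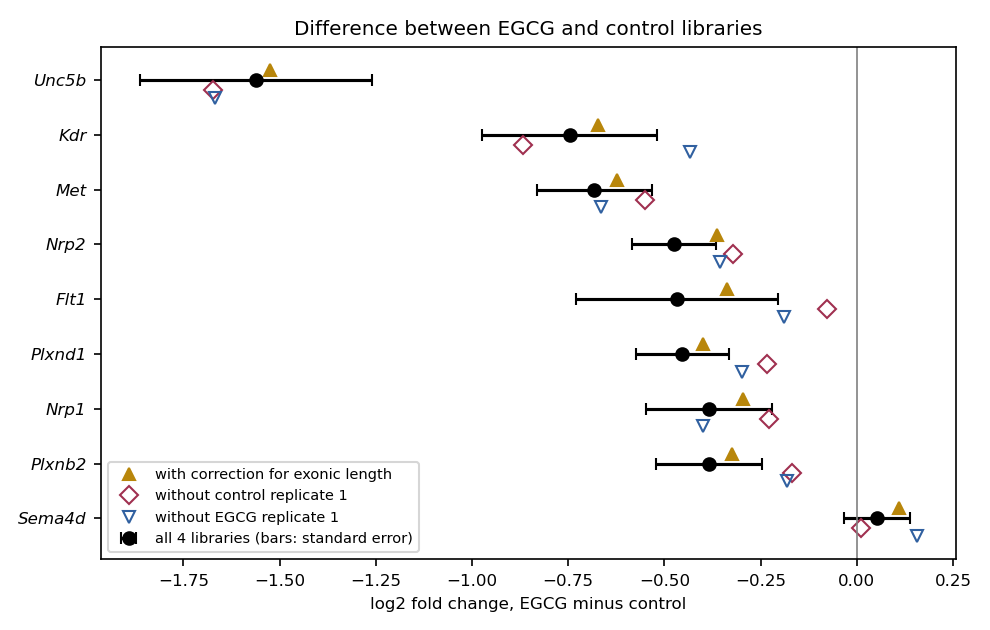
Log2 fold change of EGCG over control for each gene (black points, bars of 1 standard error), with the values after correction for exonic length (triangles), without control replicate 1 (diamonds) and without EGCG replicate 1 (open triangles). Unc5b, at -1.56, lies far to the left of the other 8 genes, and Flt1 moves to -0.08 without control replicate 1.

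The levels of the genes can be compared only per length, and for this TPM (each count divided by exonic length and scaled to the same sum in every library) was computed in each library. Sema4d was the highest, with a mean of 222 TPM (range 197 to 237 over the 4 libraries), above 97.8% of the genes with any count. Plxnd1 came next at 40.8 TPM (28.4 to 57.9), and the ranges of neither overlapped with that of the gene below it. Plxnb2 at 14.6 TPM and Nrp2 at 10.6 TPM had overlapping ranges, and Nrp2 did not overlap with Met, at 3.18 TPM. From Met on, each gene overlapped with the next: Nrp1 was at 2.01 TPM, Kdr at 1.41 TPM, Unc5b at 0.786 TPM and Flt1 at 0.785 TPM. The ligand gene was thus far above all the receptor genes, and the VEGF receptor genes Kdr and Flt1 were at the bottom with Unc5b. Unc5b and Flt1 changed places by library: Unc5b was at 1.15 and 1.25 TPM in the control libraries and at 0.392 and 0.352 TPM in the EGCG libraries, while Flt1 was at 1.21 and 0.685 TPM and at 0.482 and 0.768 TPM. The exact order depends on the length and the scaling used. With the longest transcript in place of all exons 3 of the 9 genes kept their rank. With CPM per kilobase, which uses the same exonic lengths as TPM but another scaling, 7 did.

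**Figure D3:**
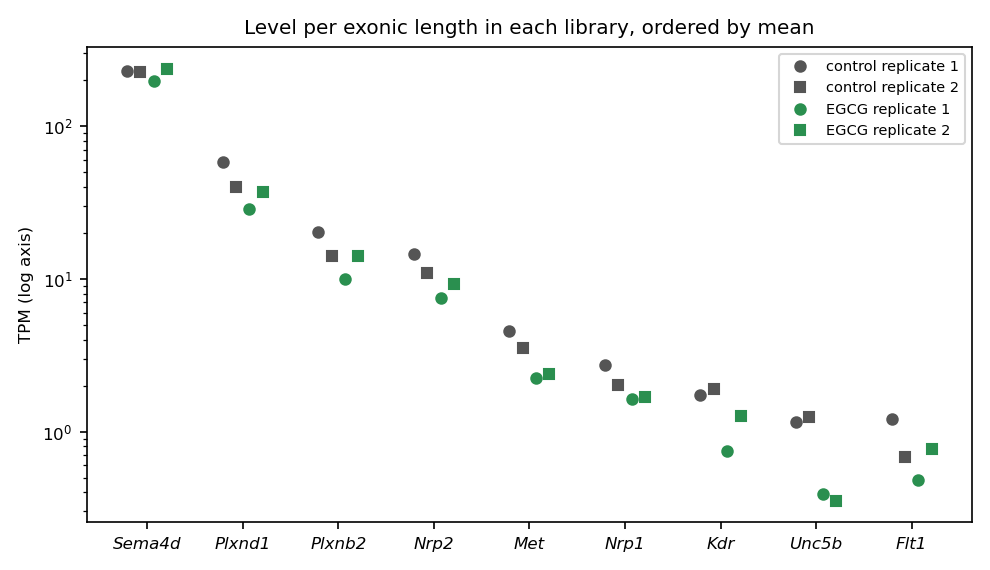
Level of each gene in TPM on a log axis in control replicates 1 and 2 (grey circles and squares) and EGCG replicates 1 and 2 (green circles and squares), ordered by the mean over the 4 libraries. Mean levels run from 222 TPM for Sema4d to below 1 TPM for Unc5b and Flt1, whose order differs between libraries.

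The 9 genes are long, with 6258 exonic bases in Unc5b to 13504 in Flt1, and fold changes in these libraries went lower with exonic length (Spearman's rho of -0.286 over 14666 tested genes, where genes are no independent replicates). Of the 3620 tested genes at least as long as Unc5b, the shortest of the 9, 69.7% had a lower mean with EGCG and 38.3% had both EGCG libraries below both controls, with a median log2 fold change of -0.08. After a correction for exonic length in each library, Spearman's rho was -0.0404 and the median of the 9 genes was -0.36. Unc5b was then at -1.53, Kdr at -0.67, Met at -0.62, Plxnd1 at -0.40, Nrp2 at -0.36, Flt1 at -0.34, Plxnb2 at -0.32, Nrp1 at -0.30 and Sema4d at 0.11. The part of length in these differences was not tested beyond this correction.

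Markers of endothelial cells, which the bead sort could have carried along, also had lower values with EGCG. Of 18 endothelial markers 15 were tested, and 14 of these had a lower mean, 11 of them with both EGCG libraries below both controls (21.2% of all tested genes). None of the 15 was called by edgeR (0.150% of all tested genes), with 9 at an unadjusted p under 0.05, all lower (7.02% of all tested genes). Their median log2 fold change was -0.56, with -0.70 once control replicate 1 was left out and -0.32 once EGCG replicate 1 was left out. The summed level of the 18 markers was 183 and 190 CPM for control against 145 and 154 CPM for EGCG. Pecam1, which leukocytes also express, made up much of it, and without it the sums were 83.0 and 78.7 against 57.2 and 65.0 CPM. Cdh5, which encodes VE-cadherin, had 126 and 114 counts in control against 59 and 72 in EGCG libraries, a log2 fold change of -0.87 (SE 0.20). No endothelial marker was at 0 in every library. The part of these cells in the values of Unc5b, Kdr, Flt1 and the other genes was not tested.

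Macrophage markers, of which Slc40a1 was the most abundant, were lower in 12 of 14 genes with a median of -0.31, but their summed level overlapped between the groups, at 1053 and 1094 CPM for control against 1029 and 1099 CPM for EGCG. Without Slc40a1 the sums did not overlap, at 491 and 469 CPM against 361 and 403 CPM. None of the 14 was at 0 in every library. Monocyte markers, led by Mpeg1, were lower in 8 of 10 genes, with sums of 2929 and 2765 CPM against 2501 and 2653 CPM and with none at 0 in every library. Their part in the result was likewise not tested. The sums of conventional dendritic cell markers, led by Ccr7, were higher with EGCG, at 54.7 and 52.2 CPM against 57.2 and 64.4 CPM, though 5 of the 8 genes had a lower mean and the median was -0.13. Without Ccr7 those sums overlapped, at 18.9 and 16.8 CPM against 15.4 and 17.8 CPM. Megakaryocyte and platelet markers, led by Itga2b, summed to 39.2 and 44.5 CPM against 36.1 and 35.8 CPM, and without Itga2b these sums overlapped as well, at 8.76 and 15.2 CPM against 9.98 and 12.7 CPM. With the most abundant gene of each list left out, the sums of 4 lists were higher with EGCG without overlap, and their full sums overlapped or, for B cell markers, touched. Neutrophil and granulocytic MDSC markers then summed to 40595 and 46485 CPM against 51815 and 46908 CPM (full sums of 63050 and 74777 against 83483 and 73916). B cell markers summed to 301 and 304 CPM against 335 and 307 CPM (406 and 426 against 460 and 426 in full). Plasmacytoid dendritic cell markers had sums of 37.6 and 38.5 CPM against 41.2 and 40.3 CPM (79.1 and 73.7 against 79.1 and 75.1 in full). Tumor epithelial markers had sums of 4.66 and 3.86 CPM against 6.51 and 6.61 CPM (26.7 and 24.3 against 22.7 and 25.9 in full). Of the stromal markers Lum, and of the tumor epithelial markers Krt14 and Krt5, were at 0 in every library.

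To see what the rest of these pathways did, 145 other genes were listed in 12 classes of ligands, receptors and signal relay genes. Of these, 144 were in the count table and 99 were tested. Trio fell with EGCG and was the only one of the 99 to pass an adjusted p of 0.05, and none rose past it, beside the 0.136% and 0.0136% of all tested genes called lower and higher. A lower mean was found in 70 of the 99 genes and a higher one in 29, and the median was -0.12, or -0.07 after the correction for exonic length. Once EGCG replicate 2 was dropped the median was -0.20, and once control replicate 1 was dropped it was -0.06. Both EGCG libraries lay below both controls in 45.5% of them, which compares with 21.2% of all tested genes and 38.3% of the genes at least as long as Unc5b. That last set is not matched in length, with a median of 8559.5 exonic bases against 5935 for the 99 genes. The share was 24.2% in tested genes of 4637 to 6965 exonic bases and 40.9% in those of 6966 or more. At an unadjusted p under 0.05 there were 20 lower and 0 higher, beside 7.02% and 5.22% of all tested genes, and 582 lower of the 3620 genes at least as long as Unc5b.

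**Figure D4:**
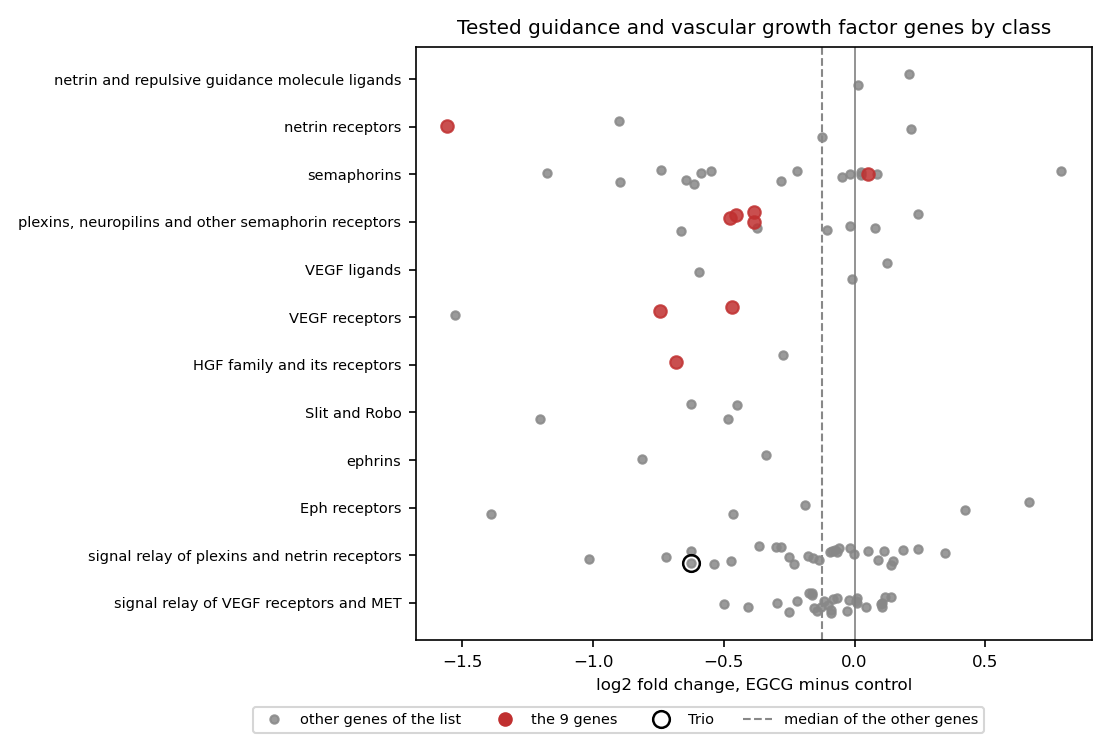
Log2 fold change of EGCG over control of the tested guidance and vascular growth factor genes, by class, with the 9 genes in red, the other 99 in grey, Trio ringed and a dashed line at the median of the other genes (-0.12). Points are spread vertically at random within a class, and Unc5b and Flt4 are the leftmost.

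Trio (ENSMUSG00000022263) encodes a guanine nucleotide exchange factor for RAC1 and RHOA that acts downstream of netrin receptors. It had 1097 and 959 counts under control conditions against 625 and 701 under EGCG. The mean of Trio was 56.9 ± 4.53 CPM (SD, n = 2) in the control group and 36.9 ± 3.38 CPM (SD, n = 2) in the EGCG treatment group, without overlap. Its log2 fold change was -0.63 (SE 0.10), with an adjusted p of 0.0245 over all tested genes in edgeR. Over 14 alternatives the adjusted p of Trio ran from 1.39e-05 to 0.562, and it stayed past the threshold in 12. With exonic length corrected the value was -0.43 with an adjusted p of 0.0951, and with no filter on low counts the adjusted p was 0.562. Trio has 23395 exonic bases, more than any of the 9 genes.

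Beside Unc5b 3 netrin receptors were tested. Unc5a, a paralog of Unc5b, had 87, 52, 49 and 25 counts in control replicates 1 and 2 and EGCG replicates 1 and 2, a log2 fold change of -0.90 (SE 0.32, adjusted p = 0.288 in edgeR). The value of Unc5a moved with single libraries, to -0.50 without control replicate 1, to -0.51 without EGCG replicate 2 and to -1.45 without EGCG replicate 1. Neo1 and Dscam, the other tested receptors, were at 0.22 and -0.12 with overlapping groups. Neo1 was at -0.19 without EGCG replicate 2 and Dscam at 0.21 without control replicate 1, and the median of the 3 was -0.12, or 0.21 without control replicate 1. The ligand genes Ntn1 and Ntn4 had too few reads for the test, with at most 6 and 10 counts in a library. Ntng2, the most abundant of the netrin family genes tested, was at 0.01. The guidance genes Flrt2 and Flrt3, whose proteins can bind UNC5 receptors, were at -0.45 and -0.48, with adjusted p of 0.497 and 0.400 in edgeR. Flrt2 was at -0.07 without control replicate 1, and Flrt3 at -0.21 without EGCG replicate 1. Robo4, an endothelial receptor and a partner of UNC5B, had 39, 56, 17 and 24 counts, a log2 fold change of -1.20 (SE 0.33, adjusted p = 0.176 in edgeR) without overlap of the groups. None of these passed the threshold.

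Among VEGF genes the third receptor, Flt4 (VEGFR3, the receptor for VEGF-C), had 57 and 42 counts in the control libraries against 16 and 18 with EGCG. Its log2 fold change was -1.53 (SE 0.32, adjusted p = 0.0797 in edgeR), close in size to that of Unc5b, and the groups did not overlap. Vegfa, the ligand gene, had 1097, 899, 1025 and 1142 counts in control replicates 1 and 2 and EGCG replicates 1 and 2, a log2 fold change of 0.13 (SE 0.10, adjusted p = 0.662 in edgeR), with overlapping groups. Vegfa was at 0.01 once control replicate 2 was dropped and at 0.26 once control replicate 1 was dropped. Vegfb was at -0.01, and Pgf, the ligand of FLT1, at -0.59 (-0.20 without EGCG replicate 1) with 8 to 18 counts in a library. Hgf, the ligand of MET, had 788, 825, 715 and 616 counts, a log2 fold change of -0.27 (SE 0.10, adjusted p = 0.280 in edgeR) without overlap, or -0.18 without EGCG replicate 2. Cbl, the relay gene of VEGF receptors and MET with the highest mean CPM, which encodes a ubiquitin ligase that turns over activated receptors, was at -0.30 (SE 0.07, adjusted p = 0.133 in edgeR). Cbl passed the threshold in DESeq2 (adjusted p = 0.0381) and with library size only, and with the length correction it was at -0.18. Per exonic length the adaptor gene Grb2, named here after its values were seen, was the highest of that class, and its log2 fold change was 0.14 (SE 0.08, adjusted p = 0.499 in edgeR), or 0.07 without EGCG replicate 2.

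Of the other semaphorins 15 were tested, 11 with a lower mean, and the median was -0.28, or -0.14 without control replicate 1. The class 3 ligands, which bind neuropilins or plexins, were all at 32 counts or fewer in a library, and none passed the threshold. Sema3a, Sema3b, Sema3c, Sema3d and Sema3f had log2 fold changes of -0.64, -1.18, -0.74, -0.62 and -0.55, and Sema3g was at -0.05. Single libraries moved these values: Sema3a was at 0.24 without control replicate 2 and Sema3g at 0.46 without control replicate 1. Sema3b was at -0.35 without EGCG replicate 2 and at -3.35 without EGCG replicate 1. For Sema3c the value was -0.43 without EGCG replicate 1 and -1.12 without EGCG replicate 2, and for Sema3f it was -0.35 without control replicate 2. Sema4a, the most abundant of the class and a relative of Sema4d, had 14122, 13544, 14320 and 13731 counts in control replicates 1 and 2 and EGCG replicates 1 and 2, and a log2 fold change of 0.03. As for Sema4d, its groups overlapped. Among the other class 4 semaphorins Sema4c had the highest value of the whole list, 0.79 (SE 0.39, adjusted p = 0.442 in edgeR), with 12 and 14 counts in control libraries against 22 and 23 with EGCG. Sema4b, Sema4f and Sema4g were at -0.22, -0.02 and -0.59, and none passed the threshold. Sema4g was at -0.33 without EGCG replicate 1, and Sema4b at -0.14 without control replicate 1. Sema6d, named here after its values were seen, had 103 counts in each control library against 51 and 59 with EGCG, a log2 fold change of -0.90 (SE 0.21, adjusted p = 0.105 in edgeR).

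Of the other plexins and semaphorin receptors 6 were tested, 4 with a lower mean, and the median was -0.06, with -0.17 without control replicate 2 and -0.03 without EGCG replicate 1. Plxna1, a partner of neuropilins, had 1795, 1123, 816 and 1013 counts in control replicates 1 and 2 and EGCG replicates 1 and 2, a log2 fold change of -0.66 (SE 0.16, adjusted p = 0.120 in edgeR), which was -0.30 without control replicate 1. Its pattern over the libraries, highest in control replicate 1 and lowest in EGCG replicate 1, was that of Plxnd1 and Plxnb2. Plxnc1, the most abundant of the class, was at -0.10, or -0.05 without control replicate 1 or EGCG replicate 1. Plxna2, another partner of neuropilins, was at -0.37 (-0.18 without EGCG replicate 1). Plxna3, a further partner, was at 0.08 with overlapping groups, and at 0.54 without control replicate 1. Cd72, a receptor for SEMA4D on B cells, had overlapping groups and a log2 fold change of -0.02. Fes, the relay gene of plexins with the highest mean CPM, was at -0.02, and Gipc1, which binds neuropilin-1 inside the cell, was at 0.18 (0.09 without EGCG replicate 2). The Slit and Robo class, in which Flrt2, Flrt3 and Robo4 are counted, had a lower mean in 4 of 4 with a median of -0.55, and none passed the threshold. That median moved to -0.21 when control replicate 1 was dropped and to -0.82 when control replicate 2 was dropped. The ephrin and Eph receptor genes with the highest mean CPM, Efnb1 and Epha2, were at -0.34 and -0.19. Efnb1 was at -0.17 without control replicate 1, and Epha2 at 0.19 without control replicate 2. Epha1, which was above Epha2 in mean level per exonic length and is named after its values were seen, was at 0.42 (adjusted p = 0.567 in edgeR), or 0.10 without EGCG replicate 1.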

How the data were processed

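The authors aligned RNA-seq reads of 4 libraries to GRCm38 with STAR 2.6.0c and counted them per gene with featureCounts 1.6.2 on Ensembl release 91 without regard to strand, per the labels, the submitters' processing notes and the study's methods. The deposited values are whole-number counts, not normalized. A total of 53465 genes were listed, with 0 columns of other samples.

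From the counts, genes were filtered with filterByExpr (minimum count of 10) and libraries scaled by TMM. The groups were tested with the quasi-likelihood test of edgeR 4.0.16 in its legacy form (R 4.3.3), with no block. Benjamini-Hochberg adjustment ran over 14682 tested genes, with a threshold of 0.05. The standard error is the log2 fold change divided by the square root of F. With 2 libraries against 2 an exact permutation test cannot go below a two-sided p of 0.333. Positions and exonic lengths came from GENCODE M21, which held 53360 of the identifiers, and promoter sequences from RefSeq (GRCm38.p6). Nearest genes used log2 CPM with a prior count of 2, and the length correction used a loess with a span of 0.4. Scripts were tested on simulated data.

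The 9 genes, the pathway list and the marker lists were chosen with earlier results of these data known. Named from the pathway list were genes past the threshold, tested ligands and co-receptors of the 9 genes, and the tested gene of a class with the highest mean CPM. Named besides were the 3 genes nearest to Unc5b and, of the markers, the most abundant gene of a list and those at 0. Cdh5, Robo4, Sema6d, Flrt2, Gipc1, Grb2, Neo1, Dscam and Epha1 were added or kept with their values in view. The alternatives were other filters, scalings and tests (DESeq2 1.42.0, edgeR robust and newer forms), the length correction, a replicate block and leaving out each library. Plots were drawn with Python 3.11.15 and matplotlib 3.10.9.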

Additional observations from a re-analysis of the deposited data

How the results depend on the processing

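The median log2 fold change of the 9 genes kept its direction under all 14 alternatives, from -0.62 to -0.23 when a library was left out, and it was -0.46 with a replicate block. The differences between replicates 1 and 2 were barely correlated between the groups (correlation of 0.03 across 14682 tested genes). Since the mice and wells are not given, this cannot show whether the replicate numbers pair the libraries. The block called 0 of the 9 genes and 6 genes higher over all genes, against 2 without it. Between 0 and 6 of the 9 genes were called by setting: library size only called 4 (Unc5b, Nrp2, Met and Plxnd1), the robust fit 1 (Unc5b), and leaving out a library 1 to 6, with Unc5b alone without control replicate 1 or EGCG replicate 1. Counts over all genes moved widely. Against 20 genes called lower, there were 0 with no filter, 6 with the length correction (5 of them among the 20) and 9 with either upper-quartile scaling or a minimum count of 30, whereas library size only gave 135, DESeq2 50, the robust fit 49, and leaving out a library 72 to 235. Against 2 called higher, there were 0 with no filter, 1 with a minimum count of 30, 16 with library size only, 14 with DESeq2 or the robust fit, 6 with the newer form and 5 to 119 with a library left out. In the pathway list, Trio among them, 1 was called lower, against 0 with no filter or the length correction, 9 with library size only, 2 with DESeq2, 3 with the robust fit and 2 to 11 with a library left out. In these counts the pathway list takes in the 9 genes as well. Unc5b, Nrp2, Met and Plxnd1 were among the 9 called with library size only, and Unc5b was among the 3 called with the robust fit. Of the 37 other genes named, 12 had the opposite sign under some alternative. Besides Trio, alternatives called Flt4 and Plxna1 (4 each), Unc5a, Sema6d and Cbl (2 each) and Robo4 (1). Library size only moved the median of all tested genes to -0.03. The order of levels kept 3 of 9 ranks with the longest transcript and 7 with CPM per kilobase. The causes were not tested. With a library left out, the lone sample is assumed to vary like the other group. Depth limits Unc5b and Flt1 most, with 17 and 53 counts in their lowest libraries.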
